A study of Aedes aegypti with 5 samples.

Results

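Salivary glands of female *Aedes aegypti* dissected 1 hour after a blood meal (1 hour post feeding, 1 hpf) were set against glands of unfed females, over all 433 gene probes of a nylon oligonucleotide array. The 1 hpf RNA was 1 pool from 10 fully engorged females that had fed on a BALB/c mouse, and the unfed RNA was 1 pool of a number of mosquitoes that the sources used here do not give. Both came from pathogen-free females of the Higgs white eye strain, of equal age (not stated), starved beforehand and without an earlier blood meal, so that the blood meal taken 1 hour earlier is the labelled difference. Each pool was hybridized to 3 arrays, 6 of the 15 in the series, which also holds 3, 24 and 48 hpf. The paper describes 3 technical replicates for each time point, and no source ties the arrays of a group to separate collections of mosquitoes. Every p-value below thus compares 2 RNA pools against the spread between arrays, with no measure of how mosquitoes differ. Fewer gland cells of a kind and less RNA per cell cannot be told apart in pooled glands.

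The salivary gland of a female mosquito makes saliva that keeps host blood from clotting, opens small vessels and dampens host defences, and it also secretes enzymes for sugar meals. These products are made on ribosomes at the endoplasmic reticulum, where they enter through the Sec61 channel, lose their signal peptide, receive sugar chains and fold. Insect epithelia including the gland also express immune genes such as defensins, small cationic peptides that kill bacteria, and recognition proteins that bind bacterial wall components. Blood feeding brings host blood past the mouthparts and spends stored saliva.

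The level of a probe is its normalized intensity, the spot less the mean empty spot, relative to the average of the actin and ribosomal protein S5 spots of that array, which were corrected likewise. The ratio is the mean of the 3 arrays at 1 hpf over the mean of the 3 unfed arrays, with limits of 2 and 0.5 as in the methods of the study. A probe was detected where it exceeded the mean of the empty spots by more than 2 SD on at least 2 arrays of either group, which 150 of 433 probes did and 283 did not. Probes above the empty spots numbered 137 to 139 on the 1 hpf arrays and 132 to 146 on the unfed arrays. Spots of 60000 or more were taken as saturated, and 40 probes were saturated on all 6 arrays. For the test, log2 values were fitted with limma over all 15 arrays with Benjamini-Hochberg adjustment over 432 probes. Because same-numbered arrays deviated together, the fit with the array number as a block is given as well wherever it changes a call. No separate tissue check was possible with muscle or fat body genes, since 0 probes are described as troponin, tropomyosin, myosin heavy chain, vitellogenin, lipophorin or transferrin. Of 9 probes for products that define the gland (apyrase, the long D7 proteins, amylase, alpha-glucosidase and the 30 kDa family) 9 were detected and 8 were saturated on all 6 arrays.

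One hour after feeding, 21 probes (4.85% of 433) had a ratio of at least 2 and 40 (9.24%) a ratio of at most 0.5. Most of the low ratios came from probes that were not detected. Detected among them were 17 of the 21 and 8 of the 40. The detected probes at least 2-fold higher were for 14 putative secreted products and 3 others, and those at most 0.5-fold for 2 secreted products and 6 others. Among the 121 probes of secreted products 100 were detected, against 50 of the 312 others. In every one of the 17 and of the 8 the 3 arrays at 1 hpf lay on the same side of their same-numbered unfed arrays, and in 13 of the 17 and 3 of the 8 the arrays of both groups did not overlap at all. These probes were picked by the ratio of the same arrays, so this agreement is no separate support. Of all 150 detected probes 106 were higher and 25 lower on 3 of 3 same-numbered arrays, and 21 and 3 did not overlap. All of the 8 but actin reached the 2 arrays of the filter in unfed glands alone. Passing it thus already favoured a lower level at 1 hpf for them. Several of the 17 reached the 2 arrays at 1 hpf alone, which favoured a higher level there. Among these were defensin A1, the angiopoietin-like protein AE-6349, AET-166 and AET-6559. The count at least 2-fold up depended on single arrays, with 32 when 1 hpf replicate 2 was left out, 12 without unfed replicate 2 and 38 without unfed replicate 3.

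**Figure D1:**
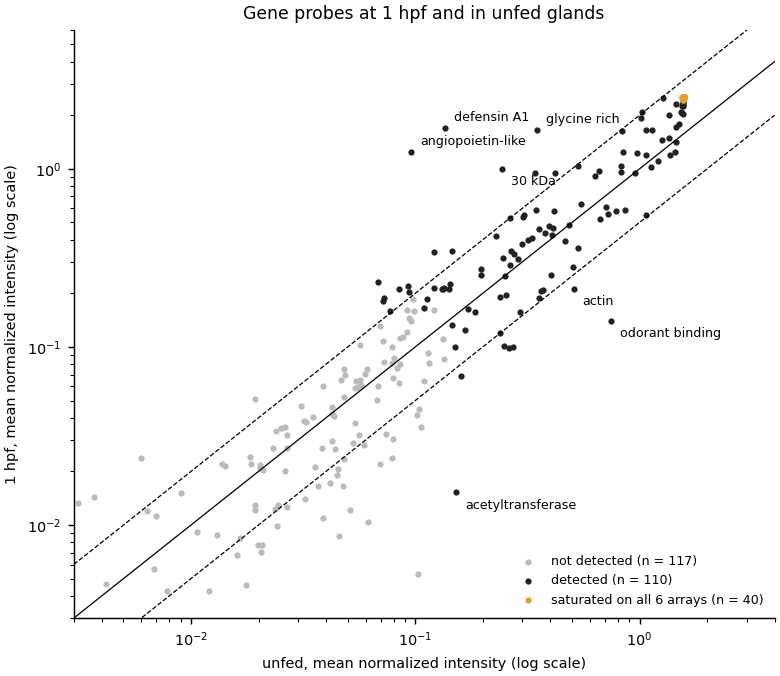
Mean normalized intensity of each gene probe at 1 hpf (vertical, log scale) against unfed glands (horizontal, log scale), with the line of equal levels and dashed lines at 2-fold and 0.5-fold. Defensin A1 and the angiopoietin-like protein stand farthest above the lines, the odorant binding protein and a predicted acetyltransferase, which no 1 hpf array detected, below them. The 40 probes saturated on all 6 arrays sit together at the upper end. Points are shown for the 267 probes with both means above 0, less 5 that fall under 0.003.

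Of 432 probes tested, 4 (0.926%) were higher and 1 (0.231%) was lower at 1 hpf by limma, and 66 and 4 at an unadjusted p of at most 0.05, where 40 of the 66 were saturated on all 6 arrays. With the array number as a block 67 (15.5%) were higher and 13 (3.01%) lower. This balance differed between the scalings, and its cause was not tested. The blocked counts of higher and lower probes were 11 and 12 with S5 alone and 13 and 24 with the median of bright probes. They were 26 and 32 with quantile normalization, 5 and 22 without scaling and 11 and 26 with the biotinylated spots. With normexp, which kept the reference pair, they were 14 and 3. Of those 67, 38 were saturated on all 6 arrays, where the scale ends and no fold is measured. The median ratio of the 40 probes at the ceiling on all 6 arrays was 1.60 in normalized values and 1.00 in raw values. The other 29 comprised 17 probes never saturated and 12 saturated on some arrays. None of the 13 lower probes was saturated in both groups. Both shares, 15.5% and 3.01%, are over all 432 probes, although 283 of the 433 were not detected. Lists below with a larger detected part are therefore not directly comparable with these shares. Among the 121 probes of secreted products 37 were saturated on all 6 arrays. With the block 21 of the others were higher and 4 were lower.

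The antibacterial peptide gene defensin A1 (S82860) showed the clearest difference. Its normalized intensity was 1.70, 1.73 and 1.67 on the 1 hpf arrays, against 0.163, 0.0712 and 0.174 on the unfed arrays, a gap much wider than the spread within either group. The ratio was 12.5 and the log2 difference 3.55 (standard error 0.35, limma, adjusted p = 0.000196). One of the 3 arrays at 1 hpf was saturated, and 1 of the 3 unfed arrays was above the empty spots, so that the size of the fold is loosely bounded on both sides. Under 7 ways of scaling, which included the arrays without scaling and a correction by the background around each spot, its ratio lay between 8.09 and 36.8.

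The angiopoietin-like protein (AE-6349), of a secreted family with a fibrinogen-like domain that includes insect immune lectins, measured 1.05, 1.2 and 1.47 at 1 hpf, against 0.123, 0.0448 and 0.119 in unfed glands. None of these 6 spots was saturated. The ratio was 13 and the log2 difference 3.40 (standard error 0.38, limma, adjusted p = 0.000329). A second probe, for an angiopoietin-like splice variant (AE-154), was saturated on all 6 arrays and gives no fold. In unfed glands the spots of defensin A1 and AE-6349 were below the background of their own surroundings on 3 of 3 arrays, and at 1 hpf above it on 3 of 3.

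The glycine rich salivary secreted peptide (AET-4173), of unknown function, measured 1.62, 1.71 and 1.62 at 1 hpf, against 0.258, 0.259 and 0.527 in unfed glands, with 3 of 3 arrays of each group above the empty spots and none saturated. The ratio was 4.73 and the log2 difference 2.33 (standard error 0.31, limma, adjusted p = 0.00144). The fourth probe past limma was I23Ma (AEA-233), listed among the immunity related products. It measured 2.34, 2.13 and 1.76 at 1 hpf, against 0.827, 1.07 and 1.19 in unfed glands (ratio 2.02, log2 difference 1.02, standard error 0.18, adjusted p = 0.0114 from limma). On 2 of 3 arrays at 1 hpf and 1 of 3 unfed arrays it was saturated, its ratio was 1.26 without any scaling, and it passed limma under 2 of the 7 scalings. Its call was lost without 1 hpf replicate 1 (limma, adjusted p = 0.0771) and without unfed replicate 1 (0.0505), whereas the other 3 passed limma without any 1 of the 6 arrays. AET-4173 did not pass limma in the 6 arrays alone (adjusted p = 0.0525), with normexp (0.193), without scaling (0.574) or with the biotinylated spots (0.200). Without scaling, limma passed neither defensin A1 (adjusted p = 0.0825) nor AE-6349 (0.113), and under the other 5 alternative scalings it passed both.

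A 30 kDa protein, a peptidoglycan recognition protein and a bacteria responsive protein were higher with the block only. The 30 kDa secreted protein AY951940, a member of the aegyptin-like family whose relatives bind collagen, measured 0.732, 0.933 and 1.33 at 1 hpf, against 0.199, 0.154 and 0.381 in unfed glands. The groups do not overlap, the ratio was 4.08 and the log2 difference 2.09 (standard error 0.48, limma, adjusted p = 0.0723, and 0.000133 once blocked). It was the only 1 of the 4 probes of that family below the ceiling. Peptidoglycan recognition protein AE-7210, of a family that binds bacterial wall fragments, measured 0.686, 0.823 and 1.33 at 1 hpf, against 0.291, 0.304 and 0.659 in unfed glands. Its ratio was 2.27 (log2 difference 1.23, standard error 0.55, limma, adjusted p = 0.282, and 0.00114 once blocked). The probe similar to bacteria responsive protein 1 of *Anopheles gambiae* (AEA-871BRE) measured 0.827, 1.01 and 1.27 at 1 hpf, against 0.385, 0.440 and 0.766 in unfed glands (ratio 1.96, limma, adjusted p = 0.241, and 0.00147 once blocked). For these 3 probes the block held without any 1 of the 6 arrays, with adjusted p from limma of at most 0.00751 for AE-7210, 0.00818 for AEA-871BRE and 0.00158 for AY951940.

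**Figure D2:**
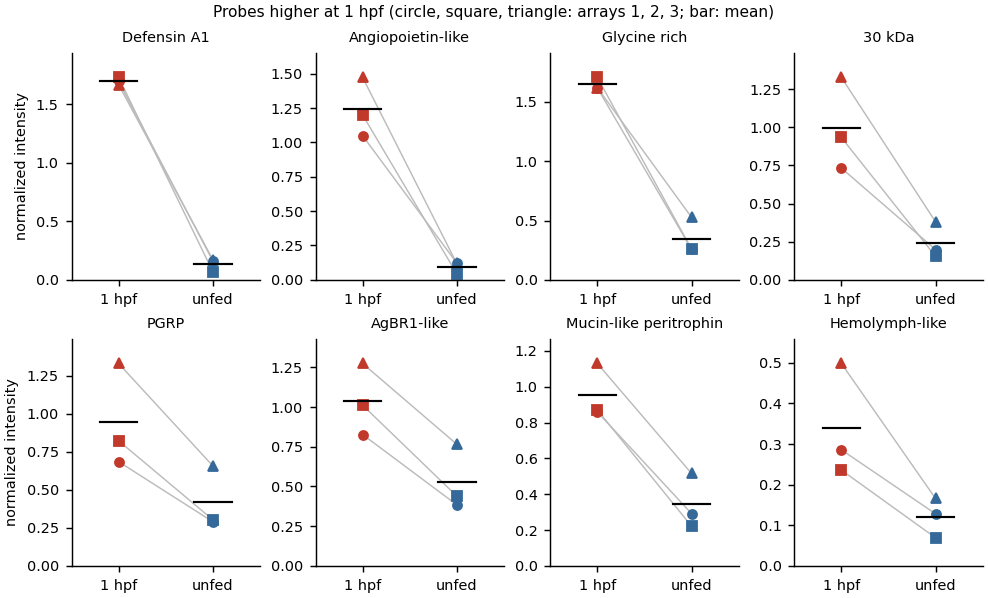
Normalized intensity (vertical) of 8 probes on each array, 1 hpf left and unfed right, with same-numbered arrays joined and bars at the means. In all 8 the 3 arrays at 1 hpf lie above the 3 unfed arrays, by ratios of 1.96 to 13.

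As a group, the 13 lectins, recognition proteins and growth factor like products held 8 detected probes, of which 3 were saturated on all 6 arrays. Past limma was 1 higher and 0 lower, and with the block 7 higher and 0 lower. Of the 7, 3 were at the ceiling on all 6 arrays, and the share over all probes was 15.5% higher with the block. A C type lectin (AET-11911) measured 0.268, 0.210 and 0.278 at 1 hpf, against 0.154, 0.202 and 0.233 in unfed glands, and did not pass (ratio 1.28, limma, adjusted p = 1, and 0.369 once blocked). Among 7 antimicrobial peptides and lysozyme probes 2 passed limma as higher, defensin A1 and I23Ma, and 0 as lower. With the block 4 were higher, the other 2 at the ceiling on all 6 arrays, and 0 lower. The probable antimicrobial peptide of the GGY family (AET-590) measured 0.249, 0.0538 and 0.187 at 1 hpf, against 0.159, 0.101 and 0.254 in unfed glands, with the arrays interleaved (ratio 0.953). The putative lysozyme (AF466591) was saturated on all 6 arrays.

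Among secreted products of unknown function, 41 probes with 34 detected and 12 saturated on all 6 arrays, 1 passed limma as higher and 0 as lower. With the block 18 were higher, 11 of them at the ceiling on all 6 arrays, and 1 was lower, against 15.5% and 3.01% of all probes, most of which were not detected. The putative secreted protein AF466586 measured 1.58, 1.64 and 1.68 at 1 hpf, against 0.622, 0.818 and 1.06 in unfed glands (ratio 1.96, limma, adjusted p = 0.197, and 0.00324 once blocked). The putative secreted peptide AE-289 measured 2.01, 2.03 and 1.73, against 0.832, 1.08 and 1.13 in unfed glands (ratio 1.90, limma, adjusted p = 0.268, and 0.0413 once blocked), and its call with the block was lost without any array but 1 hpf replicate 3 (0.0732 to 0.212). Both had 1 of 3 arrays at 1 hpf saturated. The putative secreted peptide AE-376, chosen after its values were seen, measured 0.406, 0.420 and 0.832, against 0.213, 0.219 and 0.484 in unfed glands and was never saturated (ratio 1.81, limma, adjusted p = 0.765, and 0.00147 once blocked). Moving the other way was the putative salivary secreted protein AE-212, which measured 0.263, 0.481 and 0.906 at 1 hpf, against 0.849, 1.19 and 1.18 in unfed glands (ratio 0.513, limma, adjusted p = 0.543, and 0.0248 once blocked). The call of AE-212 with the block was lost without 1 hpf replicate 1 or 3 and without unfed replicate 1 or 2 (adjusted p = 0.0542 to 0.127).

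Of the 13 mucins and peritrophins, glycoproteins of mucus and of the lining of the gut, 11 were detected and 0 passed limma. With the block 4 were higher (2 of them saturated on all 6 arrays) and 0 lower, against 15.5% and 3.01% of all probes. Mucin-like peritrophin AE-466 measured 0.859, 0.870 and 1.13 at 1 hpf, against 0.292, 0.222 and 0.516 in unfed glands (ratio 2.77, limma, adjusted p = 0.241, and 0.00147 once blocked). Its spot nevertheless lay below its local background on all 6 arrays. The spot had a raw mean of 29325 at 1 hpf and 18034 in unfed glands, and the background around it 33839 and 21397. With the local background taken into account by normexp the ratio was 1.02 (adjusted p = 1 with the block). The putative mucin AE-329 had the lowest ratio of the list that was measured on every array, 0.740 (limma, adjusted p = 1, and 0.370 once blocked).

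Local background was also read beside the other probes. The background around the spots of secreted products had a median of 16467 at 1 hpf and 18490 in unfed glands, against 3098 and 3313 around the other spots. Of the 17 detected probes at least 2-fold up, the spot exceeded its local background on 3 of 3 arrays at 1 hpf for 11, on none for 5 and on some for 1, and the mean background was higher at 1 hpf for 16. The 5 were mucin-like peritrophin AE-466, cystatin AE-746 (ratio 2.37), the predicted secreted peptide AET-10880 (2.15), the unknown conserved product AET-621 (2.50) and vacuolar ATPase subunit C (AET-575, 2.06). For the cystatin, an inhibitor of cysteine proteases, the raw spot was 9691 at 1 hpf and 7147 in unfed glands, with 15625 and 12046 around it. For AE-6349 the spot was 37342 at 1 hpf and 7424 in unfed glands, with 13134 and 8646 around it, and for AET-4173 it was 46938 and 18350, with 15167 and 7962 around it. Each of the 8 detected probes at most 0.5-fold exceeded its local background on all 3 unfed arrays, and the mean background was lower at 1 hpf for 8 of the 8. With normexp the ratios of AE-466, AE-746, AET-10880 and AET-621 were 1.02, 1.23, 1.36 and 0.997, in that order, that of AET-575 was 1.75, and none of the 5 passed with the block. The acetyltransferase (AET-1814) measured 0.0131, 0.0107 and 0.0219 at 1 hpf, against 0.0933, 0.0992 and 0.262 in unfed glands, where it was above the empty spots on 2 of 3 arrays (limma, adjusted p = 0.834, and 0.427 once blocked). Glucosamine-6-phosphate N-acetyltransferase (AY791896), which acts in making amino sugars, measured 0.0421, 0.0490 and 0.114, against 0.0863, 0.119 and 0.273 in unfed glands (limma, adjusted p = 1, and 0.376 once blocked). Neither passed, and since at 1 hpf neither was above the empty spots on any array, no fold is measured for them.

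**Figure D3:**
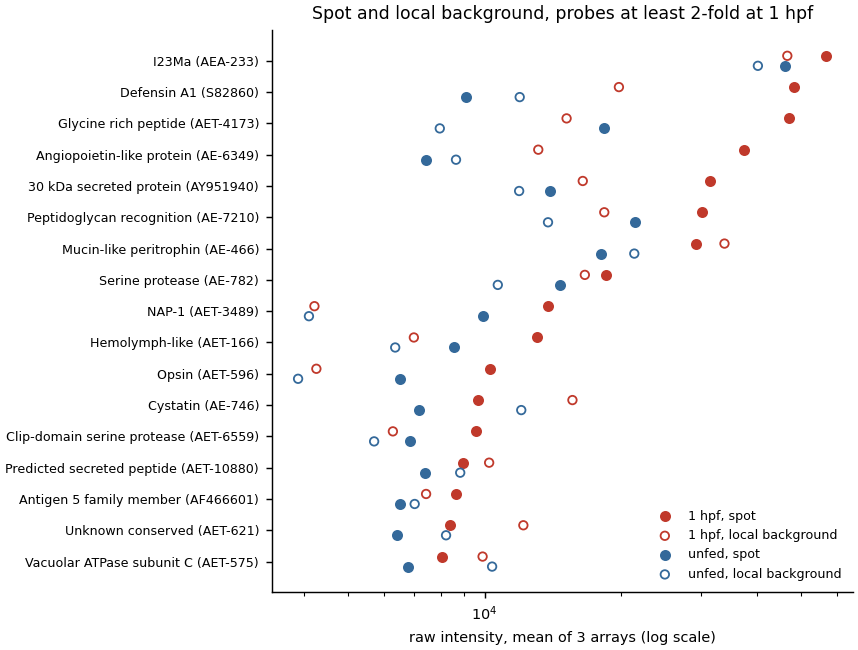
Raw intensity (horizontal, log scale, mean of 3 arrays) of the spot (filled) and of the background around it (open) at 1 hpf and in unfed glands, for the 17 detected probes with a ratio of at least 2. For the defensin, glycine rich and angiopoietin-like probes the 1 hpf spot lies well to the right of its background, and for 5 probes, among them AE-466 and AE-746, it lies to the left.

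Serine proteases, which cleave proteins and in clip-domain form act in immune cascades, held 9 probes, of which 8 were detected and 0 passed limma. With the block 3 were higher, 1 of these at the ceiling on all 6 arrays, and 1 was lower, against 15.5% and 3.01% of all probes. Clip-domain serine protease AET-6559 measured 0.145, 0.158 and 0.332 at 1 hpf, against 0.136, 0.0351 and 0.0832 in unfed glands (ratio 2.50, limma, adjusted p = 0.452, and 0.129 once blocked). AET-6559 reached the 2 arrays of the filter at 1 hpf alone, which already favoured a higher level there. Serine protease AE-782 measured 0.366, 0.425 and 0.793, against 0.227, 0.172 and 0.394 in unfed glands, with overlapping groups and a ratio of 2.00 (limma, adjusted p = 0.523, and 0.00425 once blocked). With normexp its ratio was 0.807. Serine protease AEA-562 measured 0.109, 0.0639 and 0.130 at 1 hpf, below the limit of detection on all 3, against 0.161, 0.166 and 0.417 in unfed glands, and was at least 1.46-fold lower (limma, adjusted p = 0.239, and 0.0191 once blocked). That call was lost without any 1 of the 1 hpf arrays (adjusted p = 0.0558 to 0.0641 with the block). AEA-562 was detected in unfed glands alone, so that passing the filter already favoured a lower level at 1 hpf.

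Of 6 protease inhibitors, all detected, 0 passed limma, and with the block 3 were higher, 2 of these at the ceiling on all 6 arrays, and 1 lower, against 15.5% and 3.01% of all probes. The peptide with a Kazal domain (AET-1428), a fold found in inhibitors of serine proteases, measured 0.129, 0.106 and 0.235 at 1 hpf, against 0.212, 0.210 and 0.456 in unfed glands, lower on 3 of 3 same-numbered arrays (ratio 0.535, limma, adjusted p = 0.241, and 0.0211 once blocked). The call with the block was lost without 1 hpf replicate 1 or 2 or unfed replicate 3 (adjusted p = 0.0828 to 0.105). Other detected probes at least 2-fold up were similar to a hemolymph protein (AET-166), to nucleosome assembly protein NAP-1 (AET-3489), to opsin (AET-596) and to the antigen 5 family (AF466601). AET-166 measured 0.286, 0.236 and 0.498 at 1 hpf, against 0.128, 0.0694 and 0.166 in unfed glands (ratio 2.80, limma, adjusted p = 0.241, and 0.00147 once blocked). No unfed array detected the opsin and AF466601 probes, which were at least 1.55-fold and 1.31-fold higher (limma, adjusted p = 0.372 and 0.254, or 0.0423 and 0.0622 once blocked). Their detection rested on the 1 hpf arrays alone, so that passing the filter already favoured a higher level there. AET-166 too reached the 2 arrays of the filter at 1 hpf alone. NAP-1, a histone chaperone, measured 0.159, 0.289 and 0.593 at 1 hpf, against 0.0802, 0.112 and 0.245 in unfed glands (ratio 2.38, limma, adjusted p = 0.423, and 0.0656 once blocked). The call of the opsin probe with the block was lost without any array but unfed replicate 1 (adjusted p = 0.061 to 0.203).

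The only probe past limma as lower was an odorant binding protein (AE-352), whose relatives, the salivary D7 proteins among them, bind small molecules. It measured 0.151, 0.0805 and 0.189 at 1 hpf, against 0.438, 0.822 and 0.979 in unfed glands, with 1 of 3 and 3 of 3 arrays above the empty spots and no overlap. AE-352 thus passed the detection filter through the unfed arrays alone, which already favoured a lower level at 1 hpf. The ratios of same-numbered arrays were 0.344, 0.098 and 0.194. Its log2 difference was -2.28 (standard error 0.47, limma, adjusted p = 0.0408, and 0.00147 once blocked). The call was also lost with normexp (limma, adjusted p = 0.341), without scaling (0.174) and in the 6 arrays alone (0.112). The same call was lost when the floor set under low values was multiplied by 0.5 (limma, adjusted p = 0.0953) or by 2 (0.0594). Without 1 array it was lost 5 times in 6 (adjusted p = 0.0505 to 0.164 from limma, and 0.0343 without unfed replicate 1), and with the block it held each time (0.00435 to 0.00933). Its ratio was 0.12 to 0.195 under the 7 scalings. Of the 8 odorant binding and D7 probes it was the only one called lower, and 1 other with a ratio of at most 0.5 was not detected. With the block 4 of the 8 were higher, 2 of these at the ceiling on all 6 arrays. The shares over all probes were 15.5% higher and 3.01% lower with the block. The D7s3 allele (AE-182) measured 0.292, 0.333 and 0.640 at 1 hpf, against 0.217, 0.127 and 0.342 in unfed glands (ratio 1.84, limma, adjusted p = 0.909, and 0.0254 once blocked), and both long D7 proteins (AF420272 and M33157) were at the ceiling.

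The detected probes for the entry of proteins into the endoplasmic reticulum and for their first processing there were lower at 1 hpf on every same-numbered pair of arrays. Of 13 glycosylation and signal peptide probes 4 were detected and 4 were lower with the block, whereas 0 passed limma without it. Of these 4, AE-258 and AET-394 were detected in unfed glands alone, so that passing the filter already favoured a lower level at 1 hpf, and AE-284 and AE-301 were detected in both groups. Of 21 probes of the secretory route 1 was detected, Sec61 alpha, and it was lower with the block too. The other 9 and 20 probes were not detected, so that their levels were not compared. Over all probes tested 3.01% were lower with the block, although most of those probes were not detected. Among the probes for other than secreted products 50 were detected and 9 were lower with the block, these included. The groups overlap in these probes, where array 3 of each group read higher than arrays 1 and 2, and the calls rest on the comparison within array numbers.

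Sec61 alpha (AY064125), the pore through which new secretory proteins enter, measured 0.111, 0.154 and 0.360 at 1 hpf, against 0.186, 0.309 and 0.616 in unfed glands. The ratios of same-numbered arrays were 0.599, 0.5 and 0.584. Its log2 difference was -0.84 with a standard error of 0.78 without the block (limma, adjusted p = 1, and 0.00147 once blocked). The signal peptidase complex removes the signal peptide from such proteins, and 2 of its subunits were measured. The subunit AE-284 measured 0.133, 0.226 and 0.480 at 1 hpf, against 0.276, 0.485 and 0.746 in unfed glands (ratio 0.556, limma, adjusted p = 1, and 0.00147 once blocked). The subunit SPC25 (AE-301) measured 0.174, 0.310 and 0.590, against 0.296, 0.535 and 0.761 in unfed glands (ratio 0.675, limma, adjusted p = 1, and 0.0123 once blocked). AE-284 was chosen after its values were seen, as were AET-2353 and AET-432, described next.

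Oligosaccharyltransferase attaches the sugar chain to such proteins, and its 2 detected probes lay below the detection limit on all 3 arrays at 1 hpf. The gamma subunit (AE-258) measured 0.0354, 0.0811 and 0.183 at 1 hpf, against 0.120, 0.223 and 0.475 in unfed glands, at least 1.52-fold lower (limma, adjusted p = 0.763, and 0.0213 once blocked). The probe for dolichyl-diphosphooligosaccharide protein glycotransferase (AET-394) measured 0.0584, 0.0700 and 0.166, against 0.134, 0.200 and 0.451 in unfed glands, at least 1.5-fold lower (limma, adjusted p = 0.909, and 0.0254 once blocked). Protein disulfide-isomerase of the endoplasmic reticulum (AET-2353), which forms disulfide bonds, measured 0.0836, 0.155 and 0.379 at 1 hpf, against 0.195, 0.305 and 0.594 in unfed glands (ratio 0.564, limma, adjusted p = 1, and 0.00147 once blocked). Without any 1 of the 6 arrays Sec61 alpha, AE-284 and AET-2353 kept their calls with the block (adjusted p of at most 0.00885). AE-258 and AET-394 lost them without 4 of the 6 arrays (adjusted p = 0.0575 to 0.109 for those of AE-258 and 0.0583 to 0.104 for those of AET-394), and AE-301 without 3 (0.0575 to 0.0625).

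**Figure D4:**
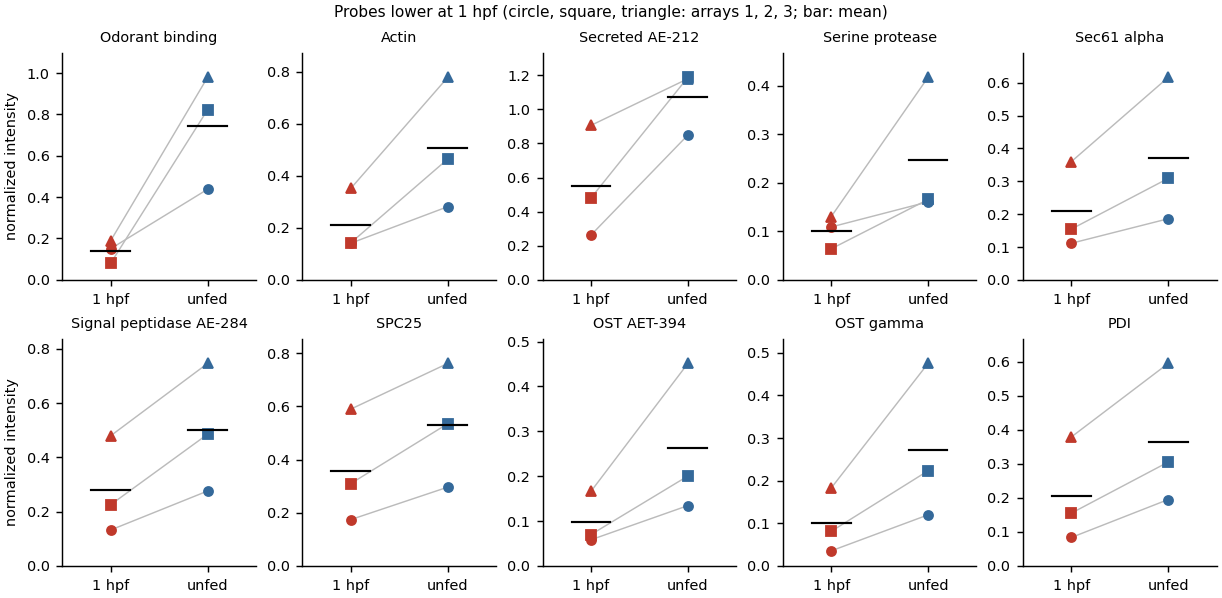
Normalized intensity (vertical) of 10 probes on each array, 1 hpf left and unfed right, with same-numbered arrays joined and bars at the means. Every line climbs from 1 hpf to unfed. In the odorant binding and AEA-562 panels the 2 groups do not overlap, and in the 5 panels for Sec61 alpha, both signal peptidase subunits and the 2 oligosaccharyltransferase probes array 3 at 1 hpf overlaps the unfed values.

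Among 18 chaperones and folding enzymes 7 were detected, with 0 past limma. With the block 0 were higher and 1 was lower, AET-2353, against 15.5% and 3.01% of all probes. Cyclophilin isoform AE-296, a prolyl isomerase, measured 0.0572, 0.0943 and 0.206 at 1 hpf, against 0.128, 0.186 and 0.403 in unfed glands, at least 1.39-fold lower, and did not pass (limma, adjusted p = 1, and 0.0684 once blocked). AE-296 too was detected in unfed glands alone, so that passing the filter already favoured a lower level at 1 hpf. Calreticulin (AF466603), a lectin chaperone of the endoplasmic reticulum, measured 1.27, 1.64 and 1.55, against 1.43, 1.47 and 1.16 in unfed glands, of which 2 were saturated (ratio 1.1). The heat shock cognate 70 probes showed ratios of 0.629 (AET-2544) and 1.47 (AET-381), and neither passed (adjusted p = 0.0589 and 0.279 with the block).

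Actin (AE-314), the protein of microfilaments and 1 of the 2 reference spots, measured 0.141, 0.142 and 0.352 at 1 hpf, against 0.281, 0.465 and 0.779 in unfed glands (ratio 0.417, limma, adjusted p = 0.241, and 0.00276 once blocked). Alpha tubulin (AET-2915) had a ratio of 1.26 (adjusted p = 0.110 with the block). Actin is also part of the divisor, of which it made up 7.05%, 7.12% and 17.6% at 1 hpf, against 14.1%, 23.2% and 38.9% in unfed glands. The S5 spot read 36584, 53016 and 60653 in raw units at 1 hpf, against 58467, 64382 and 64191 in unfed glands, and was saturated on 1 and 2 arrays. The biotinylated control spots had raw medians of 5586, 7657 and 18583 at 1 hpf, against 5953, 7898 and 19923 in unfed glands, close within each number. Over 44 probes above the empty spots on all 6 arrays and never saturated, the median log2 difference was 0.33 with the reference pair and -0.11 when arrays were scaled to the biotinylated spots.

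Calls with the block were also made under each of the 7 scalings. Every alternative to the deposited values moved the median log2 difference of bright probes down, by -0.27 to -0.64. Such a shift makes a lower call easier and a higher call harder. The counts of scalings below are therefore not comparable between higher and lower probes. Defensin A1, AE-6349, AET-4173 and AY951940 were higher with the block under all 7 scalings, and AE-352, AE-284 and AET-394 lower under all 7. Sec61 alpha, AE-301, AET-2353 and actin were lower under 6, all but normexp. Other calls depended more on the scaling. Of the lower ones AE-258 and AET-1428 were called under 5 and AEA-562 under 4. Of the higher ones AET-166 was called under 6 of the 7 scalings and AE-466, AE-7210, AEA-871BRE, AE-376 and AET-2855 under 5. AF466586 and AE-782 were called under 3, I23Ma and AE-289 under 2, and AE-182 and AET-330 under 1, the deposited normalized values. Ribosomal protein S4 (AE-303) was likewise lower under 6 and measured 0.302, 0.523 and 0.943 at 1 hpf, against 0.591, 0.961 and 1.04 in unfed glands (ratio 0.682, limma, adjusted p = 1, and 0.0167 once blocked). Its call with the block was lost without 1 hpf replicate 1 or 2 and without unfed replicate 1 or 2 (adjusted p = 0.0604 to 0.0896). Saturation on 5 or 6 of the 6 arrays left no measured fold for S2, S3 and L31. A probe similar to reverse transcriptase (AET-432) was the remaining lower one (ratio 0.524, limma, adjusted p = 0.761, and 0.0108 once blocked) and was not called without 1 hpf replicate 1 (adjusted p = 0.0615 with the block) or unfed replicate 2 (0.0625).

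Of 18 translation factors 4 were detected, 0 passed limma, and 2 were higher and 0 lower with the block, against 15.5% and 3.01% of all probes. Elongation factor 1 gamma (AET-2855) measured 0.279, 0.504 and 0.832 at 1 hpf, against 0.159, 0.245 and 0.499 in unfed glands (ratio 1.79, limma, adjusted p = 1, and 0.0016 once blocked). The probe for elongation factor 1 alpha (AET-205), the carrier of charged tRNAs, measured 0.319, 0.461 and 0.797, against 0.404, 0.698 and 0.893 in unfed glands (ratio 0.790, limma, adjusted p = 0.370 with the block). A probe similar to a gamma-interferon inducible lysosomal thiol reductase (AET-330) had a ratio of 1.69 (limma, adjusted p = 0.920, and 0.0263 once blocked). The lists for vacuolar ATPase (9 probes, 4 detected), mitochondrial energy and import (9, 1 detected), the proteasome and ubiquitin (15, 0 detected), amino acid and serine synthesis (5, 0 detected) and apoptosis (4, 0 detected) had 0 calls by limma with or without the block. With so little signal no level was comparable in most of them.

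Nucleotidases and other secreted enzymes, among them apyrase (L12389), which removes the ADP that activates platelets, held 8 probes, 4 of them at the ceiling on all 6 arrays. Of the 3 measured below it none was called. Salivary alkaline phosphatase (AET-5851) measured 1.15, 1.09 and 1.5 at 1 hpf, against 1.63, 1.47 and 1.23 in unfed glands, of which 2 were saturated (ratio 0.863, adjusted p = 0.715 with the block). The putative carboxylesterase AF466590 had a ratio of 1.28 with interleaved arrays. Both sugar digestion probes, amylase (L03637) and alpha-glucosidase (M30442), and the 3 detected 34 kDa probes were at the ceiling on all 6 arrays, so that a change after feeding could not be seen in these products.

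The levels at 1 hpf were also set against the later times, as contrasts of the same fit that share the 1 hpf arrays, while the ratios share the unfed arrays. Of the 17 detected probes with a ratio of 2 or more at 1 hpf, 8, 5 and 4 had a ratio of at least 2 at 3, 24 and 48 hpf as well, and of the 8 at most 0.5-fold, 6, 4 and 2. Peptidoglycan recognition protein AE-7210 showed ratios of 2.27, 0.821, 0.514 and 0.948 at 1, 3, 24 and 48 hpf. It was higher at 1 hpf than at each later time with the block (log2 differences of 1.60, 2.25 and 1.29, adjusted p = 0.000269, 1.08e-05 and 0.00101), and not by limma without it (0.77, 0.17 and 0.49). Defensin A1 had ratios of 12.5, 14.4, 8.3 and 3.63, and the difference of 1 hpf from 3 hpf was -0.21 on the log2 scale (limma, adjusted p = 1). Its level at 1 hpf exceeded that at 48 hpf by 1.93 on the log2 scale (limma, adjusted p = 0.0667, and 0.00218 once blocked). The angiopoietin-like protein showed ratios of 13, 7.07, 14.5 and 4.25. AE-466 showed ratios of 2.77, 1.94, 1.45 and 0.814, and the hemolymph-like probe AET-166 of 2.80, 5.08, 1.87 and 1.05.

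Sec61 alpha showed ratios of 0.563, 1.42, 0.993 and 0.812 at 1, 3, 24 and 48 hpf, and was lower at 1 hpf than at 3 and 24 hpf with the block (log2 differences of -1.27 and -0.73, adjusted p = 0.000519 and 0.0073, against 1 and 1 from limma without it). SPC25 showed ratios of 0.675, 0.903, 1.13 and 0.744 and was lower at 1 than at 24 hpf (adjusted p = 0.0162 with the block). AE-284 had 0.556, 0.547, 0.734 and 0.490, and the difference of 1 hpf from any later time did not pass. Cyclophilin AE-296 showed ratios of 0.499, 0.486, 2.16 and 0.533. Actin showed ratios of 0.417, 0.235, 0.148 and 0.121, with no call between 1 hpf and a later time (adjusted p = 0.0752 to 0.313 with the block).

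**Figure D5:**
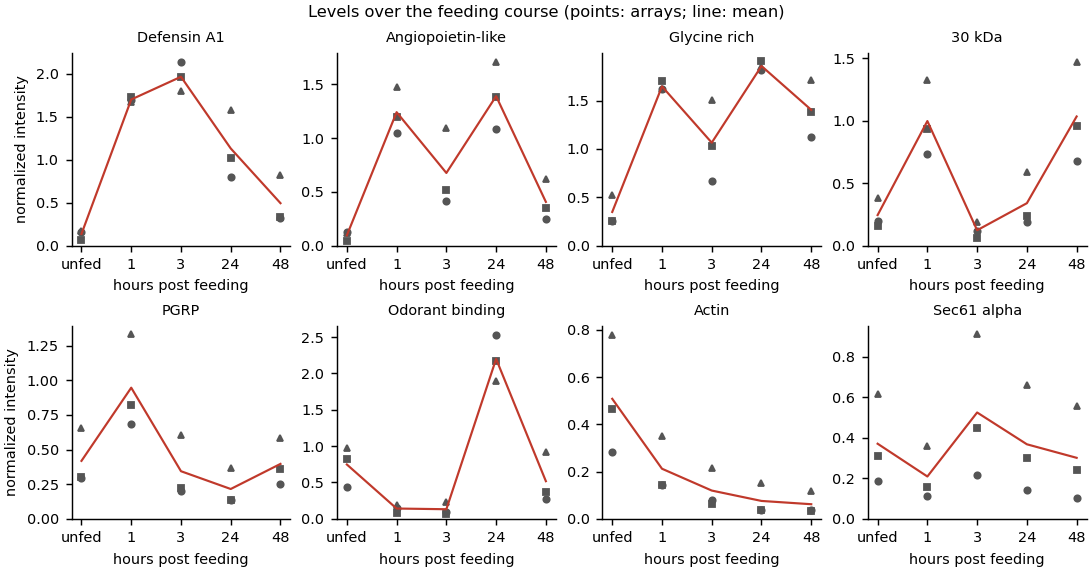
Normalized intensity (vertical) of 8 probes in unfed glands and at 1, 3, 24 and 48 hpf, with a point for each array and a line through the means. Defensin A1 and the angiopoietin-like protein are high from 1 hpf, the 30 kDa and recognition protein (PGRP) probes are lower at 3 hpf than at 1 hpf, the odorant binding protein is low at 1 and 3 hpf, and actin is lowest at 48 hpf.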

How the data were processed

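The deposited raw intensity of spots and of their surroundings, and the normalized intensity of the authors' report, were used. The authors made the report intensity as the spot minus the mean of 22 empty spots, divided by the mean for positions 411 (actin) and 424 (S5), which was recomputed within 0.000129. The methods name another ribosomal protein as the reference. The score values deposited by the authors in the series matrix are ratios to unfed, an alternative. The authors' lists of ratios and p-values were not used. The probe spotted 3 times was averaged. Values under a floor of 0.108 were raised to it, and log2 values of 15 arrays were fitted with limma 3.58.1 in R 4.3.3. The fit with the block was not tested on simulated data. Where no array of a group detected a probe, "at least" sets the brighter group against each array's lowest detected signal, or the dim signal if higher. This value allows for the undetected signal only. It leaves out the spread between arrays and is not a confidence limit. Same-numbered arrays of 1 hpf and unfed deviated together over 160 probes (correlations 0.565 to 0.740 in 3 pairs, 0.323 to 0.768 in all 30), so the block was used beside the fit without it. Replicate numbers come from the columns of the report. Genes were named by a rule: detected probes past 2-fold or 0.5-fold, those past limma, the 5 highest and lowest past the block without overlap, the 26 entries of the paper's list of changed genes, both reference spots and the extremes of each keyword list. Members, lists and rule were chosen with earlier results of these data known. None of the 433 probe names stands in the RefSeq table, and probe sequences were not used here. Arrays, 3 per pool, limit the precision.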

Additional observations from a re-analysis of the deposited data

Results flagged for a closer look

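Levels at 1 hpf differed from those at another time after feeding in 2 genes by limma without the block. The odorant binding protein AE-352 was lower at 1 hpf than at 24 hpf, with a log2 difference of -3.91 (adjusted p = 0.00158). Its mean normalized intensity was 0.140 at 1 hpf and 2.20 at 24 hpf, where 2 of 3 arrays were saturated. The 30 kDa protein AY951940 was higher at 1 hpf than at 3 hpf by 2.86 on the log2 scale (adjusted p = 0.0339), with means of 0.997 at 1 hpf and 0.123 at 3 hpf. That 3 hpf mean lay near the floor of 0.108 and among the detection limits of the 3 hpf arrays, 0.0746 to 0.223. The size of this difference is therefore loosely bounded.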

How the results depend on the processing

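Apart from AY753538 and AE-393, no gene named here changed direction past the threshold under any alternative. Both were higher with the block (log2 differences of 0.39 and 0.43, limma, adjusted p = 0.0407 and 0.00292). With quantile normalization both were lower with the block (log2 differences of -0.21 and -0.096, limma, adjusted p = 0.00113 and 0.00218). The count of probes at least 2-fold up (21) was 12 after scaling to the median of bright probes, 8 without scaling and 78 by the series matrix, of which 56 have no ratio here, and 12 to 38 when 1 array was left out. The count at most 0.5-fold (40) was 68 with the median, 71 without scaling, 9 with normexp, 8 among detected probes, 73 with the biotinylated spots (chosen after seeing the data), and 29 to 59 without 1 array. Higher probes were 34.4% of those past either limit, against 64.0% with normexp and 10.1% without scaling, 15% with the median, 16.1% with the biotinylated spots and 21.7% with S5 alone. These settings moved the median of bright probes by -0.27 to -0.64 on the log2 scale.

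Past limma, 4 higher and 1 lower became 67 and 13 with the replicate block, 2 and 0 in the 6 arrays alone, 7 and 14 with the median, 18 and 15 with quantile normalization, 0 and 0 without scaling. Lower were 0 with normexp, 0 with the floor multiplied by 0.5 and 0 by 2, and 19 with the biotinylated spots. Leaving out 1 array gave 3 to 6 higher and 0 to 1 lower, and with the block 57 to 70 and 7 to 11. The methods' t-test gave 12 higher and 10 lower unadjusted, 2 and 0 after Benjamini-Hochberg. With the block other scalings gave 5 to 26 higher and 3 to 32 lower, with more lower than higher under 5 of the 6. The cause was not tested.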
